A study of Homo sapiens with 11 samples.

Results

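Sunitinib, a drug that blocks receptor tyrosine kinases, was developed against receptors of the vascular endothelial and platelet-derived growth factors, and the transcripts of these targets were followed here in cells that had become resistant to it. The set holds 10 genes, found by their symbols among the 26485 in each count table. It consists of the VEGF receptors KDR, FLT1 and FLT4, the PDGF receptors PDGFRA and PDGFRB, the receptors KIT and RET, which sunitinib also inhibits, the receptors MET and AXL, named in the literature as routes by which tumour cells bypass the drug, and VEGFA, the ligand of KDR and FLT1. All 10 symbols were present in both tables. The questions were which of these genes the resistant cells transcribed, and whether the optimized drug combination (ODC) changed them.

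The cells were Caki-1-SR, a subline of the human clear cell renal cell carcinoma (ccRCC) line Caki-1, which comes from a skin metastasis. A single resistant clone was sequenced. All groups share this resistant background, and the subline is kept in medium with 1 µM sunitinib. The ODC groups received 4 drugs together: the ruthenium complex Rapta-C at 2 µM, the EGFR kinase inhibitor erlotinib at 1 µM, the diabetes drug metformin at 1 µM and parthenolide, a plant lactone that lowers inflammation, at 5 µM. After 24 h there were 3 CTRL libraries (numbers 1, 3 and 5) and 3 ODC libraries (2, 4 and 6), and after 2 h there were 2 CTRL libraries (1 and 2) and 3 ODC libraries (3, 4 and 5), 11 in all. The study calls the control untreated in one place and sham-treated in another. No library of sunitinib-sensitive cells was analysed here, so the levels describe resistant cells and not a change on acquiring resistance. Nothing in the labels says that the libraries of a group came from separate cultures, so the p-values measure the spread between these libraries, which may be technical.

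Receptor tyrosine kinases span the cell membrane. Ligand binding outside brings receptors together and starts phosphorylation inside, which is passed on through the RAS-MAPK and PI3K-AKT pathways. In the kidney and its tumours VEGFA is made by epithelial or tumour cells, while KDR, FLT1 and FLT4 belong mainly to blood and lymphatic endothelium, PDGFRB to pericytes and PDGFRA to fibroblasts. MET, the receptor of hepatocyte growth factor, and AXL, the receptor of GAS6, are carried by many carcinoma cells themselves. In ccRCC, loss of VHL commonly leaves hypoxia-inducible factors active, and VEGFA is among their targets. Whether VHL is lost in Caki-1-SR was not examined here.

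The counts of a library summed to between 17785229 and 20882856 at 24 h and to between 25782895 and 31118349 at 2 h. A floor of 3 counts in a library amounts to between 0.144 and 0.166 CPM (counts scaled to the effective library size) in the 24 h libraries and between 0.0953 and 0.116 CPM in those of 2 h. Floors cover counting error only. Among 13 renal epithelial markers, PAX8 (131 ± 27.6 RPKM, SD, n = 3, in CTRL at 24 h), KRT8, KRT18 and VIM were abundant in the cells, whereas CA9, the carbonic anhydrase that marks most ccRCC, had 0 or 1 count in every library and PAX2 at most 4. Of 10 endothelial markers, CDH5, ERG, CLDN5 and EMCN had no more than 1 count in any library outside CTRL library 1 at 2 h. TIE1, in contrast, had 11 to 44 counts in each library, ESAM 3 to 16 and TEK 0 to 7. The summed level of all 10 markers lay between 0.967 and 2.66 CPM. In these bulk libraries, fewer cells of a type and less RNA per cell cannot be told apart.

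CTRL library 1 at 2 h stood apart. It held 129 genes with at least 10 counts there and at most 3 in each other 2 h library, against 0 to 6 such genes in any other library among those of its time. COL1A2 and COL3A1, fibrillar collagen genes of fibroblasts, reached 971 and 1081 counts in it and at most 11 elsewhere. The proteoglycan genes DCN and LUM reached 73 and 65 counts, KRT19 48 and VWF, an endothelial marker, 13. All 10 pericyte and fibroblast markers were above 3 counts there, with a summed level of 379 CPM against 180 to 232 CPM in the other 2 h libraries. The fold changes of the members at 2 h and the tallies of gene lists at that time are therefore given with and without it, which leaves 1 CTRL library, assumed to vary like the ODC libraries. The part of these transcripts in the results was not tested.

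Transcript levels of different genes are compared as RPKM, the CPM per kilobase of the gene's main transcript (MANE Select). In CTRL cells at 24 h AXL stood at 197.9 ± 17.6 RPKM and MET at 194 ± 19.4 RPKM (SD, n = 3), followed by VEGFA at 21.9 ± 7.48, PDGFRB at 2.78 ± 1.43 and PDGFRA at 0.0133 ± 0.0118 RPKM. AXL and MET did not differ beyond their spread. With the union of all annotated exons as length in place of the main transcript, VEGFA was at 5.47 RPKM and kept its place in the order. At 2 h MET stood at 203 ± 2.66 RPKM, AXL at 89.9 ± 17.1, VEGFA at 20.2 ± 7.90, PDGFRB at 0.578 ± 0.0560 and PDGFRA at 0.0856 ± 0.0506 RPKM (SD, n = 2). At that time the MET and AXL libraries did not overlap. CTRL library 2 alone gave 202 RPKM for MET, 102 for AXL, 14.6 for VEGFA, 0.539 for PDGFRB and 0.0498 for PDGFRA, in the same order, and 0 for the other 5 members. FLT4 was at 0.00614 and 0.00332 RPKM at the 2 times, and at 24 h KDR, FLT1, KIT and RET were at 0 in CTRL. At least 1 RPKM was reached by 4 members at 24 h (MET, AXL, VEGFA and PDGFRB) and by 3 at 2 h, where PDGFRB was below it.

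Against 58 receptor tyrosine kinases, of which 9 are members, AXL and MET held the first 2 places at both times. Together they made up 57.2% of the summed RPKM of the 58 at 24 h and 59.1% at 2 h. EPHA2, an ephrin receptor, came next at both times, at 91.1 ± 29.4 RPKM at 24 h and 33.7 ± 10.3 at 2 h. In CTRL library 2 alone MET and AXL made up 59.5% at 2 h, and the third place went to RYK (27.9 RPKM), a receptor of WNT ligands, named after its value was seen. EGFR, the target of erlotinib in the combination, was named after its values were seen and stood at 43.6 ± 7.12 RPKM at 24 h. PDGFRB ranked 19 of 58 at 24 h and 21 at 2 h. In all, 20 of the 58 receptors reached 1 RPKM at 24 h and 19 at 2 h, and 13 and 7 were at 0. Without CTRL library 1, 19 reached 1 RPKM at 2 h and 16 were at 0. Read against a floor of 3 counts per library, the MET level at 24 h was at least 7290-fold higher than that of KDR, at least 8900-fold higher than that of FLT1, at least 6430-fold higher than that of KIT and at least 7020-fold higher than that of RET. Over all 24542 genes with a length, 98.71% lay below MET and 98.75% below AXL at 24 h.

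**Figure D1:**
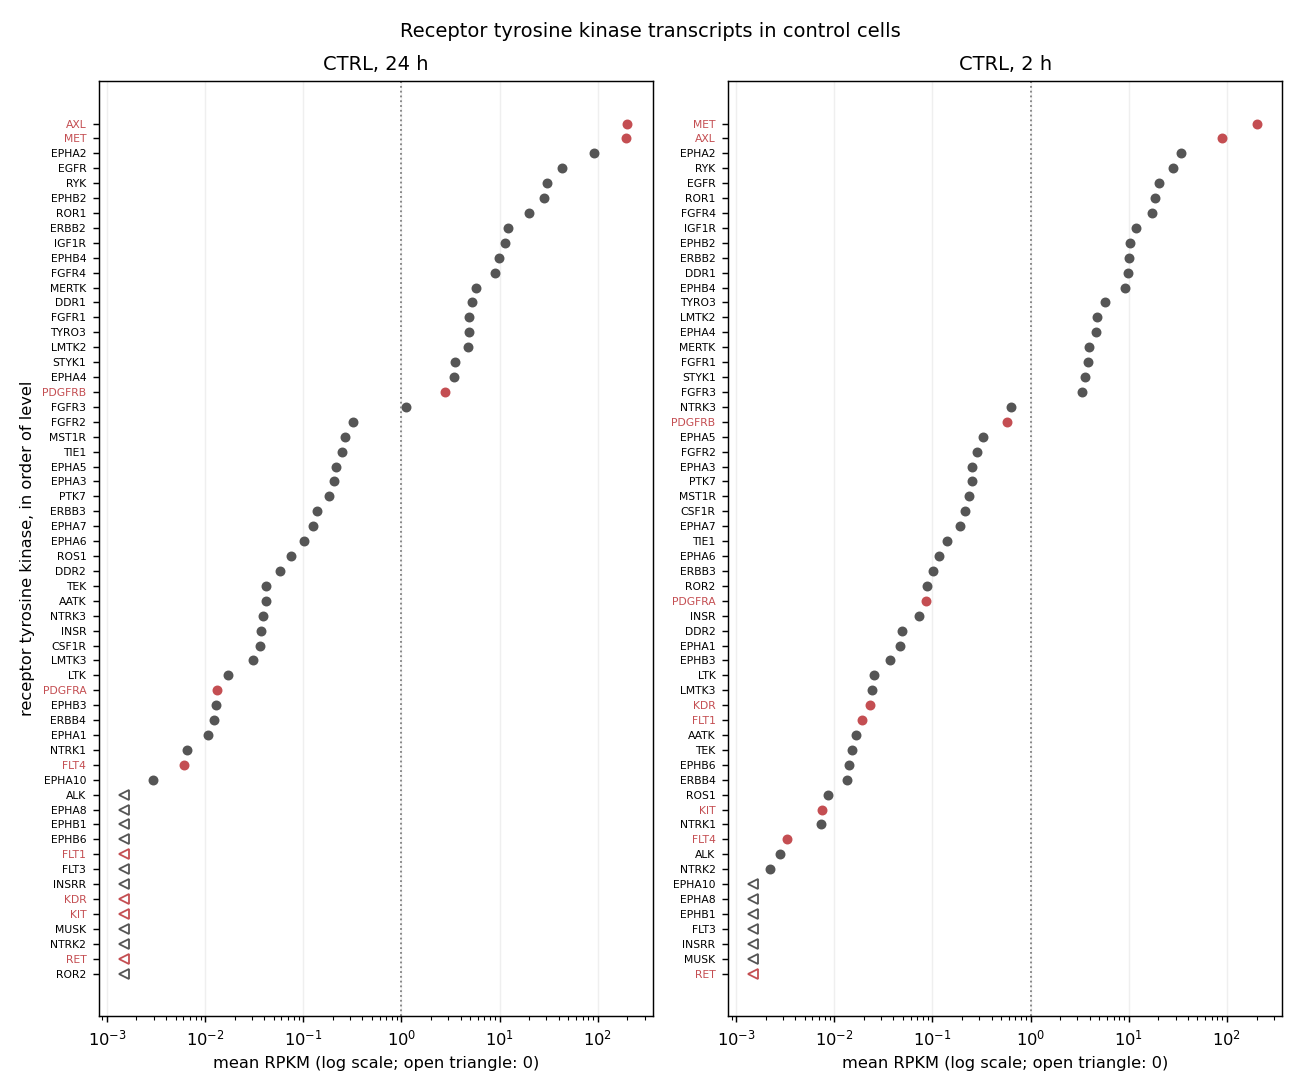
Mean RPKM (log axis) of 58 receptor tyrosine kinases in the 3 CTRL libraries at 24 h (left) and the 2 CTRL libraries at 2 h (right), in order of level. Members are red, receptors at 0 are open triangles placed at the left edge, and the dotted line marks 1 RPKM; AXL and MET lie at the top in both panels and the VEGF receptors, KIT and RET near the bottom.

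The regions upstream of the transcribed MET gene (chr7:116672196-116798377, plus strand) and the silent KDR gene (chr4:55078481-55125595, minus strand) are shown as examples of an abundant member and of one with no count at 24 h. The sequences come from RefSeq on GRCh38.p14 and end at the base before the annotated start, with the motif GGGCGG, the core of the GC box bound by Sp1-type factors, in capitals on either strand (on the opposite strand it reads CCGCCC).
MET, chr7:116671946-116672195, plus strand: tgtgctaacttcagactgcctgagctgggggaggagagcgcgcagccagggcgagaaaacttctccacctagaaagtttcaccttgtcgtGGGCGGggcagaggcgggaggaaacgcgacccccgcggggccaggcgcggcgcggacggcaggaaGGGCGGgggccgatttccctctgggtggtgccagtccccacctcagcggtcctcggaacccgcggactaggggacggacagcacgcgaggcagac
KDR, chr4:55125596-55125845, minus strand: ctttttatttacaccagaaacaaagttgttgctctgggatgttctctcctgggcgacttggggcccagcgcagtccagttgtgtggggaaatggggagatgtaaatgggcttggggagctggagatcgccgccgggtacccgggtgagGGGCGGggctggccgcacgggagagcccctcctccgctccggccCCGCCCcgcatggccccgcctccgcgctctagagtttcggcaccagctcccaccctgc
In the full window of 250 bases before to 50 after the start, MET held 3 copies of GGGCGG and 30 CpG dinucleotides, and KDR 2 copies and 22 CpG dinucleotides. Of 35116 such promoter windows 45.0% held GGGCGG on either strand, and the median window held 14 CpG dinucleotides. Neither window held CCAAT or TATAAA on either strand, motifs found in 34.6% and 11.5% of windows. A further motif, ACGTG, was found in 21.4% of windows. The MET window held 1 copy on each strand, past the start and outside the sequence shown, and the KDR window held none. The first AXL window held 7 CpG dinucleotides and the KIT window 38, so that CpG content among the members did not follow the level. Windows were at hand for 8 of the 10 members, and VEGFA and FLT4 were without one. A motif match is a description of letters and not of a bound site.

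The VEGF receptors were near 0 throughout. KDR (VEGFR2), the main signalling receptor for VEGFA, had 0 counts in all 6 libraries at 24 h. At 2 h it had 7 counts in CTRL library 1, 0 in CTRL library 2, and 0, 0 and 1 in ODC libraries 3, 4 and 5. FLT1 (VEGFR1, chr13:28300346-28495145), which binds VEGFA tightly and also exists as a soluble form, had 0 counts at 24 h and at 2 h 7 counts in CTRL library 1 and 0 in the other 4 libraries. The counts do not separate soluble from membrane-bound FLT1. FLT4 (VEGFR3, chr5:180601506-180649624), the receptor for VEGFC and VEGFD on lymphatic endothelium, had 1 count in CTRL libraries 3 and 5 at 24 h and in CTRL library 1 and ODC library 3 at 2 h, and 0 in the other 7. Without CTRL library 1 at 2 h, the 3 VEGF receptors summed to 1 count for KDR, 0 for FLT1 and 3 for FLT4 over 10 libraries.

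KIT (chr4:54657267-54740783), the stem cell factor receptor of mast and germ cells, was at 0 except for 2 counts in CTRL library 1 at 2 h. RET (chr10:43077064-43130351), the GDNF-family receptor that guides kidney branching, was at 0 except for 1 count in ODC library 2 at 24 h. KIT and RET were below the floor of 3 counts in all 11 libraries, so transcription under that floor was not detectable at this depth and no fold change is given for them. FLT3 and CSF1R, further receptors that sunitinib inhibits, had 0 counts in every library and between 2 and 42 counts, respectively. Among the VEGF receptors, KIT and RET, the counts above 1 were 7 for KDR, 7 for FLT1 and 2 for KIT. All of these lay in CTRL library 1 at 2 h, the library that also held the collagen and VWF counts.

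**Figure D2:**
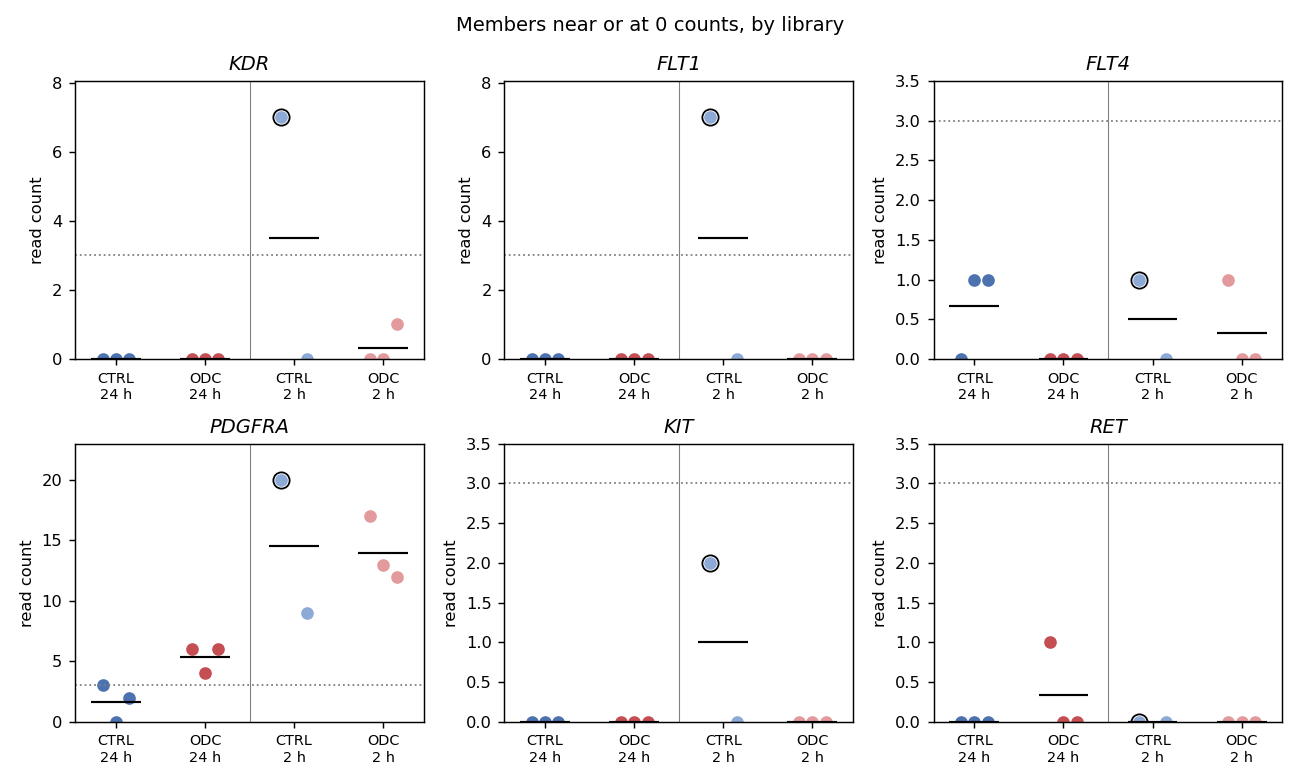
Read counts (vertical axes) of 6 members in each of the 11 libraries by group. Points are libraries, black bars group means, the dotted line 3 counts and the ringed point CTRL library 1 at 2 h; KDR, FLT1 and KIT rise above 1 count only in the ringed library, and PDGFRA lies at 0 to 3 counts in CTRL and 4 to 6 in ODC at 24 h.

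PDGFRA (chr4:54229280-54298245), the receptor for PDGF-A and PDGF-C on fibroblasts, gave few but repeated counts. It had 3, 0 and 2 counts in CTRL libraries 1, 3 and 5 and 6, 4 and 6 in ODC libraries 2, 4 and 6 at 24 h. The groups did not overlap, as for 17.9% of all genes tested at that time. The CTRL counts were at or under the floor, and PDGFRA did not pass the filter on low counts at 24 h. At 2 h it had 20 and 9 counts in CTRL and 17, 13 and 12 in ODC, and the groups overlapped. Its log2 fold change at 2 h was -0.23 (SE 0.49, edgeR quasi-likelihood test, unadjusted p = 0.646), and without CTRL library 1 it was 0.53 (unadjusted p = 0.426).

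PDGFRB (chr5:150113839-150155872) is the receptor for PDGF-B and PDGF-D that keeps pericytes on vessels. Among the VEGF and PDGF receptors, KIT and RET, PDGFRB alone reached 1 RPKM. At 24 h it stood at 6.54, 21.6 and 19.5 CPM in CTRL libraries 1, 3 and 5 and at 25.6, 49.1 and 20.1 CPM in ODC libraries 2, 4 and 6. The highest CTRL library lay above the lowest ODC library, so the groups overlapped, and CTRL library 1 was low. The log2 fold change was 1.00 (SE 0.47, edgeR quasi-likelihood test, unadjusted p = 0.0644, adjusted p = 0.447). It was 0.61 without CTRL library 1 and 0.52 without ODC library 4, the library with the highest value, and 1.29 without CTRL library 3 and 1.24 without ODC library 6. The unadjusted p was under 0.05 in 5 of 16 alternatives, namely without either of the last 2 libraries (0.0442 and 0.0311), with every gene tested (0.0344), with the likelihood ratio test (0.0344) and in the joint fit (0.0321), and the adjusted p ran from 0.265 to 0.845. At 2 h PDGFRB stood at 3.52 and 3.07 CPM in CTRL and at 3.46, 3.43 and 5.32 CPM in ODC, with a log2 fold change of 0.30 (SE 0.26, unadjusted p = 0.280) and of 0.40 without CTRL library 1. Its counts were 91 and 87 in CTRL libraries 1 and 2 at 2 h, so that it did not share the excess of collagen counts in library 1. MCAM and ACTA2, which pericytes and smooth muscle cells also express, had log2 fold changes of 1.24 (adjusted p = 0.237) and 0.71 (adjusted p = 0.148) at 24 h, and COL1A2, COL3A1, DCN and LUM had at most 2 counts in each 24 h library. COL1A1, another fibrillar collagen gene and the most abundant of these markers, had 1249 to 2500 counts in each 24 h library, at 99.6 ± 34.5 CPM in CTRL and 110 ± 17.5 CPM in ODC (SD, n = 3 each), with overlap. The list of 10 pericyte and fibroblast markers, which includes PDGFRB itself, summed to between 91.5 and 181 CPM in CTRL and between 165 and 242 CPM in ODC at 24 h, and all 5 of its members tested had a higher estimate in ODC. The part of other cell types in the PDGFRB values was not tested.

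MET, the receptor whose transcripts led the set together with AXL, at 24 h stood at 1413, 1174 and 1393 CPM in CTRL libraries 1, 3 and 5 and at 1261, 1131 and 1542 CPM in ODC libraries 2, 4 and 6. The groups overlapped fully, the ODC libraries holding both the highest and the lowest value. The log2 fold change was -0.017 (SE 0.14, edgeR quasi-likelihood test, adjusted p = 0.978), and it lay on either side of 0 when single libraries were left out. At 2 h MET stood at 1401 and 1375 CPM in CTRL and at 1227, 1364 and 1382 CPM in ODC, a log2 fold change of -0.068 (SE 0.087, unadjusted p = 0.460), and without CTRL library 1 it was -0.055.

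AXL (chr19:41219223-41261766), which is activated by GAS6 bound to membrane lipid, stood at 838, 983 and 980 CPM in CTRL and at 972, 1130 and 1040 CPM in ODC at 24 h. Only ODC library 2 lay within the CTRL range. The log2 fold change was 0.17 (SE 0.11, edgeR quasi-likelihood test, unadjusted p = 0.158, adjusted p = 0.591). At 2 h AXL stood at 367 and 481 CPM in CTRL and at 353, 504 and 377 CPM in ODC, a log2 fold change of -0.044 (SE 0.17), with both CTRL values inside the ODC range, and without CTRL library 1 it was -0.23.

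VEGFA (chr6:43770184-43786487), the angiogenic ligand secreted by ccRCC cells, varied most between libraries of 1 group among the 3 abundant members. At 24 h it stood at 106, 78.1 and 52.4 CPM in CTRL libraries 1, 3 and 5 and at 53.5, 40.1 and 63.4 CPM in ODC libraries 2, 4 and 6. CTRL libraries 1 and 3 lay above all ODC libraries and CTRL library 5 among them. The log2 fold change was -0.59 (SE 0.26, edgeR quasi-likelihood test, unadjusted p = 0.0521, adjusted p = 0.416). Over 16 alternatives it ran from -0.82 to -0.33 with adjusted p from 0.239 to 0.899, and the unadjusted p was under 0.05 in 7 of them, the lowest being 0.00632 without CTRL library 5. At 2 h VEGFA stood at 93.0 and 52.7 CPM in CTRL and at 56.6, 72.3 and 99.2 CPM in ODC, a log2 fold change of 0.062 (SE 0.28), and without CTRL library 1 it was 0.53.

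**Figure D3:**
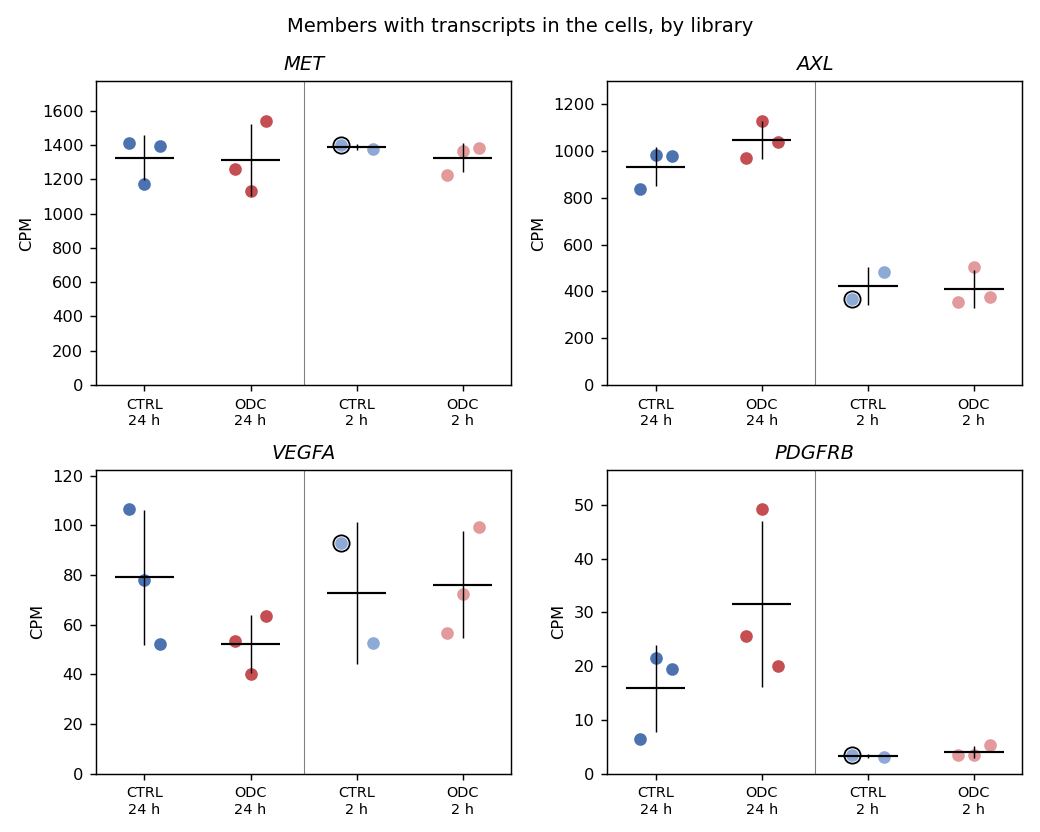
CPM (vertical axes, from 0) of MET, AXL, VEGFA and PDGFRB in each library by group. Points are libraries, horizontal bars means, vertical lines 1 SD, and the ringed point is CTRL library 1 at 2 h; CTRL and ODC overlap in every panel at both times, and AXL and PDGFRB are higher in the 24 h libraries than in the 2 h libraries.

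After the filter on low counts, 4 members were tested at 24 h among 12689 genes and 5 at 2 h among 13332 (PDGFRA in addition). None of the 4 members tested at 24 h had an adjusted p under 0.05, where 0.189% of all genes tested (24) did, and none had an unadjusted p under 0.05 in this fit, where 12.2% did. None of the 4 had groups that did not overlap, against 17.9% of all genes. At 2 h none of the 5 members had an adjusted p under 0.05 by edgeR's quasi-likelihood test, against 0.0% of all genes. At an unadjusted p under 0.05 the members numbered 0 of 5, against 2.34% of all genes (312), and the likelihood ratio test and DESeq2 gave 5 and 1 genes with an adjusted p under 0.05 among all genes and no member. None of the 5 members had groups without overlap at 2 h, against 15.3% of all genes. In simulated data of the same depth the test called 85% of 100 genes changed 2-fold at 24 h and 78% of 100 at 2 h. For the difference between the times it called 52% of 100. Each simulated gene had exactly the spread typical of its level, without the scatter around it that real genes have. These shares may therefore be too high for real genes, and they need not hold for members that varied more. At 24 h the SE was 0.47 for PDGFRB and 0.26 for VEGFA, against 0.11 for AXL.

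The effect at 24 h was compared with that at 2 h in a joint fit of 11 libraries. The log2 fold change at 24 h exceeded that at 2 h by 0.67 for PDGFRB (unadjusted p = 0.313, edgeR quasi-likelihood test), by 0.19 for AXL and by 0.036 for MET. For VEGFA the difference was -0.67 (unadjusted p = 0.151), and without CTRL library 1 at 2 h it was -1.13 (unadjusted p = 0.0408, adjusted p = 0.933). Without that library the difference was 0.38 for AXL. PDGFRA entered this fit through its counts at 2 h, and since its CTRL counts at 24 h were at or under the floor, no size is given for its difference. None of the 5 members passed an adjusted p of 0.05, against 0.015% of all genes (2), and none an unadjusted p of 0.05, against 5.93%.

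The levels of AXL and PDGFRB were unlike at the 2 times already in CTRL cells. The mean CPM at 24 h was 2.20 times that at 2 h for AXL and 4.81 times for PDGFRB, while the ratio was 0.956 for MET and 1.08 for VEGFA. The CTRL libraries of the 2 times did not overlap for AXL or PDGFRB. The tables were scaled separately and the library titles carry a different month for each time point, so time and month cannot be told apart, and no test was made.

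Of the 58 receptor tyrosine kinases, members included, 31 were tested at 24 h, of which 23 were higher and 8 lower in ODC, with a median log2 fold change of 0.32 against 0.00089 over all genes. None had an adjusted p under 0.05. At an unadjusted p under 0.05 there were 9 higher and 2 lower, which is 11 of 31 beside the 12.2% of all genes; the count was 5 without CTRL library 1 and 7 without ODC library 4. FGFR3, a fibroblast growth factor receptor, had the smallest p, at 4.76 ± 1.25 CPM in CTRL and 11.4 ± 2.54 CPM in ODC (SD, n = 3 each; log2 fold change 1.26, SE 0.25, adjusted p = 0.108). EPHA5, an ephrin receptor, followed at 1.80 ± 0.52 and 4.05 ± 0.839 CPM (log2 fold change 1.17, adjusted p = 0.163). With the likelihood ratio test and DESeq2 both passed an adjusted p of 0.05. Other receptors also had small p in these tests, of which IGF1R and DDR1 were named after their values were seen. IGF1R also passed an adjusted p of 0.05 in both tests, and DDR1 with DESeq2 but not with the likelihood ratio test. The unadjusted p of IGF1R was 0.000659 with the likelihood ratio test and 0.000533 with DESeq2. That of DDR1 was 0.00194 and 0.00131. At 2 h, 34 were tested, 13 higher and 21 lower. Of these, 1, ERBB3, had an unadjusted p under 0.05 (log2 fold change -1.66, SE 0.69), against 2.34% of all genes. Without CTRL library 1, 16 of 36 were higher and 20 lower, and no receptor had such a p.

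Ligands were present for some members and near 0 for others. Of 19 ligands other than VEGFA, a list that also holds those of CSF1R and FLT3 (CSF1, IL34 and FLT3LG), 11 reached 1 RPKM in CTRL at 24 h. GAS6, the ligand of AXL, stood at 91.2 ± 13.5 RPKM in CTRL at 24 h and 61.6 ± 5.87 RPKM at 2 h, so that receptor and ligand were both among the abundant transcripts. HGF, the ligand of MET, was named after its values were seen and had 0 counts in all 6 libraries at 24 h and 2 counts in each CTRL library at 2 h. VEGFC, a ligand of FLT4, stood at 17.4 ± 6.73 RPKM and CSF1, the ligand of the receptor CSF1R, at 30.1 ± 10.8 RPKM in CTRL at 24 h. PDGFB, a ligand of PDGFRB, stood at 5.81 ± 1.86 RPKM. The RET ligands GDNF, NRTN, ARTN and PSPN, also named after their values were seen, stood at 0.271, 0.0558, 0.136 and 0.173 RPKM.

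Of 13 ligands tested at 24 h, 8 were higher and 5 lower in ODC, none with an adjusted p under 0.05. Of the 13, 1 (CSF1) had an unadjusted p under 0.05, against 12.2% of all genes. CSF1 stood at 120 ± 43.2 CPM in CTRL and 307 ± 46.6 CPM in ODC (SD, n = 3 each), without overlap, as were 17.9% of all genes at that time, with a log2 fold change of 1.35 (SE 0.26, adjusted p = 0.0989). It passed an adjusted p of 0.05 when every gene with at least 1 count was tested (0.0353), in the joint fit (0.0218), with the likelihood ratio test and with DESeq2. PDGFB stood at 21.7 ± 6.95 CPM in CTRL and 43.4 ± 28.9 CPM in ODC, with overlap (log2 fold change 1.00, SE 0.49, unadjusted p = 0.0757). At 2 h 11 of 13 ligands were higher and 2 lower, none with an unadjusted p under 0.05, against 2.34% of all genes. Without CTRL library 1, 13 of 14 were higher, CSF1 alone with an unadjusted p under 0.05 (log2 fold change 0.26, unadjusted p = 0.0477). GAS6 was 0.24 higher on the log2 scale (SE 0.11, unadjusted p = 0.0546) and PDGFB 0.86 higher (SE 0.39, unadjusted p = 0.0585), against 0.15 and 0.73 without that library (unadjusted p = 0.276 and 0.173).

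Among co-receptors, NRP1, the neuropilin that presents VEGFA to KDR, was at 69.0 ± 17.9 RPKM in CTRL at 24 h although KDR itself was at 0. It had a log2 fold change of -0.68 in ODC (SE 0.24, unadjusted p = 0.0211, adjusted p = 0.295). GFRA1, which binds GDNF for RET, was at 61.2 ± 15.3 RPKM although RET was at 0 in CTRL. It stood at 404 to 676 CPM in CTRL and higher in each ODC library (log2 fold change 1.00, SE 0.31, adjusted p = 0.249). Groups without overlap were found for 17.9% of all genes at that time. CD44, whose splice forms act with MET, was at 168 ± 52.1 RPKM with a log2 fold change of -0.069. Of the 4 co-receptors tested at 24 h, 1 was higher and 3 lower. At 2 h 2 were higher and 2 lower, none with an unadjusted p under 0.05, against 2.34% of all genes. Without CTRL library 1, 3 were higher and 1 lower.

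Of 9 genes that activate growth factor precursors or inhibit that step, 3 were tested. PLAT, the tissue plasminogen activator, which can cleave pro-HGF and PDGF-C, stood at 74.4 ± 38.2 CPM in CTRL and 13.6 ± 7.48 CPM in ODC at 24 h (SD, n = 3 each), without overlap. Its log2 fold change was -2.45 (SE 0.49, adjusted p = 0.107). SPINT2, an inhibitor of the proteases that activate HGF, stood at 10.3 ± 1.19 and 6.12 ± 0.124 CPM, also without overlap, as were 17.9% of all genes at that time (log2 fold change -0.76, SE 0.15, adjusted p = 0.108). Both passed an adjusted p of 0.05 with the likelihood ratio test and DESeq2, and PLAT also in the joint fit (0.0225). FURIN, the convertase that cleaves the precursors of MET, VEGFC and the PDGFs, was at 21.6 ± 1.23 RPKM with a log2 fold change of 0.019. At 2 h 1 of the 3 was higher and 2 lower, FURIN having the smallest p (0.16, SE 0.092, unadjusted p = 0.125), and without CTRL library 1 all 3 were higher (FURIN 0.16, unadjusted p = 0.217).

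**Figure D4:**
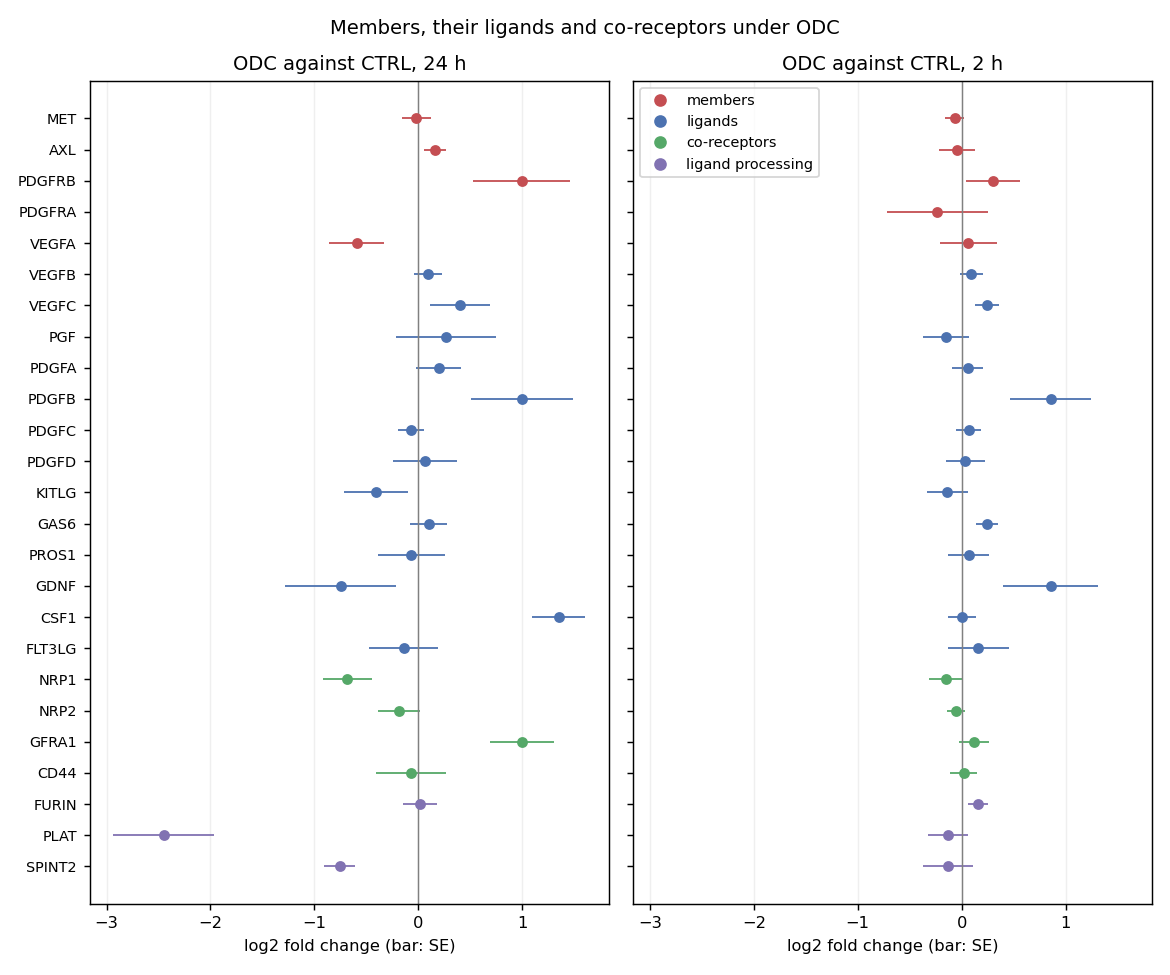
Log2 fold change of ODC against CTRL at 24 h (left) and 2 h (right) for the members tested, their ligands, co-receptors and ligand-processing genes. Points are edgeR estimates and bars 1 SE; MET and AXL lie near 0 at both times, PDGFRB (1.00) and PDGFB (1.00) to the right and VEGFA (-0.59) and PLAT (-2.45) to the left at 24 h, and no member has an adjusted p under 0.05.

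All 31 signal relay genes listed downstream of the receptors were tested at 24 h, 18 higher and 13 lower, none with an unadjusted p under 0.05 and with a median log2 fold change of 0.0091. The smallest p belonged to BRAF (0.26, SE 0.12, unadjusted p = 0.0686) and PIK3CB (0.17, SE 0.096, unadjusted p = 0.110). At 2 h 12 were higher and 19 lower. MAP2K2 (MEK2) alone had an unadjusted p under 0.05 (0.21, SE 0.085, unadjusted p = 0.0373), against 2.34% of all genes. Without CTRL library 1, 11 were higher and 20 lower and none had such a p (MAP2K2 0.22, unadjusted p = 0.0879). Of 12 genes tested that switch receptors off, 5 were higher and 7 lower at 24 h, none with an adjusted p under 0.05, against 0.189% of all genes. ADAM17, the protease that sheds receptor ectodomains, had a log2 fold change of 0.32 (SE 0.099, unadjusted p = 0.0131) and ERRFI1 (MIG6), an inhibitor of EGFR and MET signalling, of -0.77 (SE 0.28, unadjusted p = 0.0260). At 2 h CBL, the ubiquitin ligase that marks MET and EGFR for degradation, stood at 91.9 ± 13.9 CPM in CTRL and 73.7 ± 2.27 CPM in ODC (log2 fold change -0.32, SE 0.11, unadjusted p = 0.0194), and without CTRL library 1 its log2 fold change was -0.47 (unadjusted p = 0.00247, adjusted p = 0.999). Of the 12 genes tested that switch receptors off, 5 were higher at 2 h and 6 without that library.

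VEGFA is a target of hypoxia-inducible factors, and other genes of that response are given beside it. Of 15 tested at 24 h, 12 were higher and 3 lower in ODC, with a median log2 fold change of 0.12 against 0.00089 over all genes. Of the 15, 3 had an unadjusted p under 0.05, beside 12.2% of all genes. NDRG1, a stress and hypoxia-induced gene, rose from 20.9 ± 2.00 CPM in CTRL to 56.5 ± 10.0 CPM in ODC (log2 fold change 1.44, SE 0.16, adjusted p = 0.0245). The call was lost without CTRL library 1 (adjusted p = 0.188), 3 (0.0855) or 5 (0.0713). EPAS1 (HIF-2α) and PDK1 had log2 fold changes of 0.78 (unadjusted p = 0.0336) and 0.34 (unadjusted p = 0.0475), while CA9 stayed at 0 or 1 count. At 2 h 8 were higher and 7 lower, none with an unadjusted p under 0.05, and EGLN3 was at -0.44 (unadjusted p = 0.199). Without CTRL library 1, 12 were higher and 3 lower, EGLN3 was at -0.37 and ANGPTL4, a secreted inhibitor of lipoprotein lipase, alone had an unadjusted p under 0.05 (0.71, unadjusted p = 0.0295). Of the 8 renal epithelial markers tested at 24 h, 2 were higher and 6 lower, with log2 fold changes of -1.46 for LHX1 (adjusted p = 0.0923) and -0.71 for KRT18 (adjusted p = 0.128).

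The genes whose library-to-library pattern was most like that of a member are given by Pearson's r of log2(CPM + 1), centred within each time point, over the 11 libraries and among 12603 genes. For MET these were IPO7 (0.967), NCEH1 (0.962) and TMX3 (0.958), and for AXL YTHDC1 (0.927), EDC4 (0.914) and ZNF629 (0.904). For PDGFRB they were ACAP3 (0.969), SCAMP5 (0.955) and LOXL4 (0.949), and for VEGFA AKR1E2 (0.914) and MYLIP (0.911) are given. The libraries share depth and treatment, the highest of many correlations was chosen, and the values are descriptions without a test.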

How the data were processed

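Poly(A) RNA of 11 Caki-1-SR libraries was sequenced by the authors with a stranded mRNA kit as single-end reads. According to the submitters' processing notes, reads were aligned to hg38 with STAR 2.7.0f and counted per gene with HTSeq 0.9.1, and the values deposited by the authors are these raw counts, without normalization, in 2 tables. The study's methods name an earlier STAR release. The strand setting of the counting and its annotation are not given in the sources used here.

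Each table was analysed on its own with edgeR 4.0.16 in R 4.3.3: filterByExpr (minimum count 10, minimum total 15), TMM scaling (0.965 to 1.02) and the earlier quasi-likelihood F test, the method of the study, two-sided, with Benjamini-Hochberg adjustment over all genes tested. SE is the size of the log2 fold change divided by the square root of F. The effects at 24 h and 2 h were compared in a joint fit of 11 libraries and 13333 genes. The library numbers were not used as pairs. CPM are counts per library size times the TMM factor, and RPKM is CPM per kilobase of the MANE Select transcript (GENCODE 44). Positions are from that annotation on hg38: 23161 symbols matched directly, 1381 through an older symbol and 1943 not. Promoter windows came from RefSeq on GRCh38.p14. No 2 libraries of a group agreed within sampling noise (chi-square per gene 19.7 to 61.5). The test was checked on simulated data. Plots were made in Python 3.11.15 (matplotlib 3.10.9).

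The members and the gene lists were chosen with earlier results of these data known. The text names every member; from each list every gene with an adjusted p under 0.05, at most 2 others with the smallest p in each comparison and the 3 with the highest CTRL level; and the 3 genes most like each member. Other genes are marked. Results for some single genes that the rule or the lists include are not reported here. Alternatives covered the filter on low counts, the scaling, the test (DESeq2 1.42.0 among them), a joint fit, the transcript length and each library left out in turn.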

Additional observations from a re-analysis of the deposited data

Results flagged for a closer look

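VIM, the intermediate filament vimentin, was lower in every ODC library than in every CTRL library at 24 h, with a log2 fold change of -0.267 (SE 0.11, edgeR quasi-likelihood test, unadjusted p = 0.0419), and higher in every ODC library at 2 h, with a log2 fold change of 0.0982 (SE 0.082, unadjusted p = 0.263), or 0.11 without CTRL library 1 at 2 h. It was flagged because the groups lay on opposite sides of each other at the 2 times. In the joint fit the difference between the times had an unadjusted p of 0.0192 and did not pass the adjustment. Groups without overlap were found for 17.9% of all genes at 24 h and 15.3% at 2 h. No member met this or any other rule. No group has 4 libraries, so single libraries were not tested as outliers.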

How the results depend on the processing

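No member had an adjusted p under 0.05 in any of the alternatives of the 24 h comparison, the 2 h comparison or the difference between them. Of 236 estimates of the members under alternatives, 222 kept their direction and 14 changed sign, all with 1 library left out. With CTRL library 1 at 2 h left out, the log2 fold change of PDGFRA at 2 h was 0.53 and that of COL1A2 1.35, and their lowest values with 1 library left out were -0.73 and -7.61. With single libraries left out MET at 24 h ran from -0.15 to 0.075 (0.022, 0.010, 0.075 and 0.019 where its sign changed), AXL at 2 h from -0.23 to 0.18 (0.18, 0.054 and 0.015), and VEGFA at 2 h from -0.28 to 0.53 (-0.28 and -0.17). The difference between the times ran from -0.11 to 0.13 for MET (-0.045, -0.11 and -0.015) and from -0.030 to 0.38 for AXL. The cause was not tested. The alternatives for the other genes, for the tallies of gene lists at 2 h and for the count of receptor kinases were chosen after seeing the data. Of the estimates of other genes named, 431 kept their direction and their side of the threshold, 30 passed an adjusted p of 0.05 under an alternative, 3 lost it and 1 changed sign.

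The number of genes with an adjusted p under 0.05 at 24 h was 24. Testing all genes with any count gave 92, the likelihood ratio test 401, DESeq2 378 and the joint fit 186, and the number ran from 2 (without CTRL library 1) to 70 (without ODC library 6) with 1 library left out. At 2 h it was 0, and 5 with the likelihood ratio test, 1 with DESeq2 and 0 to 42 with 1 library left out, 42 being without CTRL library 2, when CTRL library 1 stood alone and was assumed to vary like the ODC libraries. For the difference it was 2, and 7 with every gene, 37 with the likelihood ratio test, 38 with DESeq2 and 0 to 4 with 1 library left out. The number of members at or above 1 RPKM stayed at 4 and 3. With the union of all exons as length VEGFA in CTRL was at 5.47 RPKM at 24 h and 5.05 RPKM at 2 h. No paired analysis was possible because the labels give no replicate numbers that the groups share. With 2 CTRL libraries at 2 h and 3 in each other group, and no more than 3 counts for most VEGF receptor, KIT and RET values, changes of those genes were not detectable at this depth.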
